A study of Scophthalmus maximus with 8 samples.

Results

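The comparison is between turbot at the climax of metamorphosis, 23 days post hatching (dph), and pre-metamorphic larvae at 15 dph. The 2 libraries labelled 23dph and the 2 labelled 15dph were taken, which is 4 of the 8 RNA-seq libraries of the series. Each library came from a different fish of Scophthalmus maximus, sampled at 1 of 4 stages of normal development with no treatment or genetic change. Fish of 15, 23 and 37 dph (post-metamorphic) were cut at the cloaca and the rear of the body was discarded, whereas embryos at 3 days post fertilization (dpf, phylotypic stage) were used whole. The count table of the second 3 dpf library is named for 3dph, whereas its sample label gives 3dpf. The label was followed, and every value given for embryos rests on it. The 37 dph and 3 dpf libraries are used here to follow the genes that differed between 23 and 15 dph. They also entered the fit that called those genes.

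Flatfish hatch as symmetrical larvae that swim in open water. At metamorphosis, which thyroid hormone drives, an eye moves across the head, the skull is reshaped, the skin becomes pigmented on a single side and the fish settles on the bottom. Climax is the period in which these changes can be seen on the body, while pre-metamorphic larvae still look symmetrical. The count tables label each gene with an Ensembl identifier, and no source used here pairs these with names. Genes are therefore described as groups, and in each direction a pair of genes is given by identifier. Which of them act in the thyroid axis, immunity, muscle or skin was not analysed here, nor were marker genes of any tissue. RNA came from bodies holding many tissues, so a change in the number of cells of a type and a change in RNA per cell cannot be told apart.

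Between 19077018 and 24633023 reads were counted on genes per library. The libraries of each stage were not the same library deposited again, since their counts differed well beyond sampling noise (chi-square per degree of freedom 11.5 at 23 dph and 7.51 at 15 dph). The biological coefficient of variation between replicates, as estimated by edgeR, was 10.1% at 23 dph and 8.15% at 15 dph, against 22.0% at 3 dpf and 19.7% at 37 dph. Reads aligned to more than 1 place made up 5.29% and 5.42% of aligned entries at 23 dph, and 4.92% and 4.48% at 15 dph. Whether this difference bears on any gene was not tested.

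Most of the genes called between these stages were higher at climax. Of 18987 genes tested, 281 were called higher at 23 dph than at 15 dph (1.48%) and 38 were called lower (0.200%), together 319 genes (1.68%). A call required a Benjamini-Hochberg adjusted p under 0.05 in edgeR's quasi-likelihood test, fitted to all 8 libraries, and a change of at least 2-fold. Higher genes were thus 88.1% of the calls. Among the 281 higher genes the log2 fold change had a median of 1.61 and quartiles of 1.28 and 2.31, and it reached 7.52. At least 4-fold changes were found in 92 of them, at least 8-fold changes in 40 and at least 16-fold changes in 21. The 38 lower genes had a median log2 fold change of -1.53, 10 of them changed at least 4-fold and 1 changed at least 8-fold. The median over all genes tested was 0.00.

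**Figure D1:**
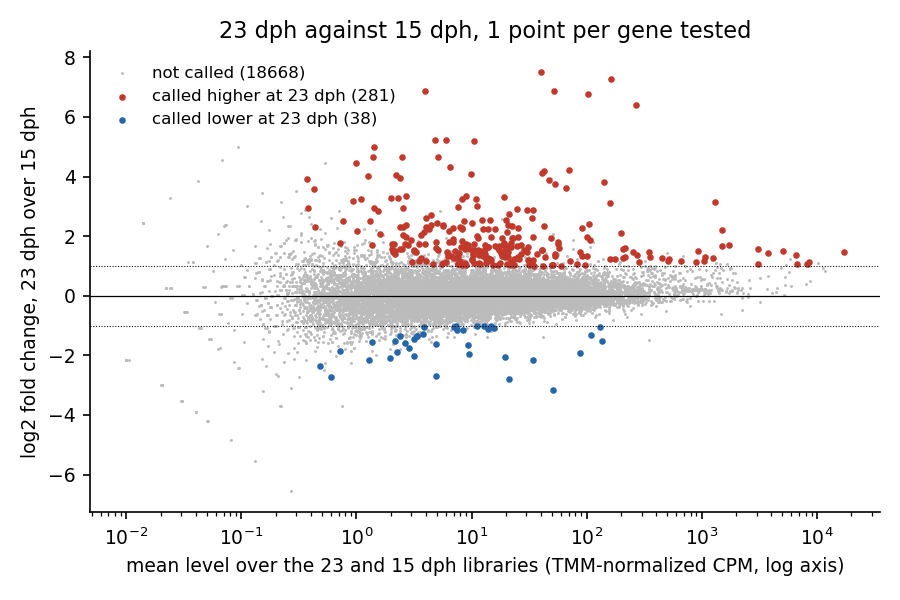
Each point is 1 of 18987 genes, with its mean level over the 23 and 15 dph libraries in TMM-normalized CPM (counts scaled to library size) on a log axis against its log2 fold change, 23 dph over 15 dph; dotted lines mark 2-fold. The 281 genes called higher at 23 dph (red) extend to the right edge of the plot and up to 7.52, whereas the 38 called lower (blue) stop at -3.17 and none of them has a mean of 1000 CPM or more.

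In all 319 called genes the 23 and 15 dph libraries did not overlap. On TMM-normalized CPM, both 23 dph libraries lay above both 15 dph libraries in 6143 tested genes (32.4%) and below them in 6043 (31.8%). Lack of overlap alone was thus common and, on this scaling, nearly even in direction. For 212 of the 281 higher genes the lower 23 dph library was still at least 2 times the higher 15 dph library. The mirrored gap held for 29 of the 38 lower genes. As the genes were chosen on these libraries for a change of at least 2-fold, these gaps are a description. The share of all genes with such a gap was not computed. Only 6 of the higher genes had 3 counts or fewer in both 15 dph libraries, so few of them came up from near the detection limit.

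The number of calls depended on which libraries set the spread. A fit restricted to the 4 libraries of 23 and 15 dph, which replicated more closely than the other stages, called 534 of 18488 genes higher (2.89%) and 200 lower (1.08%), with higher genes at 72.8% of the calls. It held all 281 and all 38 genes of the fit to 8 libraries. At an adjusted p under 0.05 with no minimum fold, the 4-library fit gave 2439 genes higher and 1643 lower, against 357 and 52 in the fit to 8 libraries. Leaving out 1 library of a compared stage, with the lone library assumed to vary like the other stages, lowered the calls to 95 higher and 6 lower without the first 23 dph fish (replicate 1), 142 and 7 without the second (replicate 2), 84 and 9 without the first 15 dph fish, and 56 and 5 without the second. When either embryo was left out instead, the lower genes numbered 85 and 83. All 319 genes kept their direction in each of the 8 fits with 1 library left out. As the 23 and 15 dph libraries did not overlap in any of these genes, this was all but fixed in advance.

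The higher genes were found at every level of counts, and their share was largest in the class with most counts, whichever stage set the class. Levels are given as TMM-normalized CPM, counts scaled to library size, which correct for library depth and for the share of counts taken by a few genes. They are not divided by gene length, so a class of CPM ranks genes by reads rather than by transcripts. By their mean over the 23 and 15 dph libraries, 16 of 123 genes with 1000 CPM or more were higher at 23 dph (13.0%), as were 27 of 1187 genes from 100 to 1000 CPM (2.27%), 127 of 9592 from 10 to 100 CPM (1.32%), 103 of 6573 from 1 to 10 CPM (1.57%) and 8 of 1512 below 1 CPM (0.529%). A gene that rose enters a class partly through its 23 dph level, and 7 of the 16 had 15 dph means under 1000 CPM, from 262 to 810 CPM. With classes set by the 23 dph mean alone, 18 of 137 genes with 1000 CPM or more were higher (13.1%), again the largest share of the classes. With the 15 dph mean alone, 9 of 99 genes with 1000 CPM or more were higher (9.09%), against 0.680% to 2.43% in the other classes. The order of the other classes changed with the stage: below 1 CPM the share was 0.254% by the 23 dph mean and 2.43% by the 15 dph mean. Both alternatives were chosen after seeing the data. The lower genes were few in each class, with 22 from 1 to 10 CPM (0.335% of the genes tested there), 10 from 10 to 100 CPM (0.104%), 3 from 100 to 1000 CPM (0.253%) and 3 below 1 CPM (0.198%). In the class of 1000 CPM or more edgeR's fit to 8 libraries called 0 genes lower, and 0 were lower at an unadjusted p under 0.05. The 4-library edgeR fit, DESeq2 and limma's voom with stage weights also called 0. They had 3, 2 and 2 genes lower at an unadjusted p under 0.05.

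This skew of the most counted genes was not limited to the genes that passed the test. Of the 123 genes with 1000 CPM or more, both 23 dph libraries were above both 15 dph libraries in 107 (87.0%) and below them in 7 (5.69%), and the median log2 fold change was 0.35. With the class set by the 15 dph mean alone this was so in 83 of 99 genes (83.8%) and 7 (7.07%), with a median of 0.25. The 1187 genes from 100 to 1000 CPM had a median of 0.13, with 51.5% above and 21.5% below. The 9592 genes from 10 to 100 CPM had a median of 0.01, and the 6573 genes from 1 to 10 CPM one of -0.06, with 27.0% above and 35.2% below. Changes of at least 2-fold, whether or not they passed the test, ran upward in 22 and downward in 0 of the 123 genes, and upward in 186 and downward in 181 of the 1512 genes below 1 CPM. The directions of the class medians depend on the scaling. So do the shares of genes above and below, which are given on TMM-normalized CPM only. On CPM with no TMM factor the median of all genes was -0.28 and that of the top class 0.04, and the medians of the classes from 10 to 100 and from 100 to 1000 CPM were -0.29 and -0.18. With upper-quartile factors the top class stood at 0.29 and the class from 10 to 100 CPM at -0.04. The order of the top classes was the same under each of these scalings. A scaling shifts all well-counted genes by about the same amount, so this order could hardly change.

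**Figure D2:**
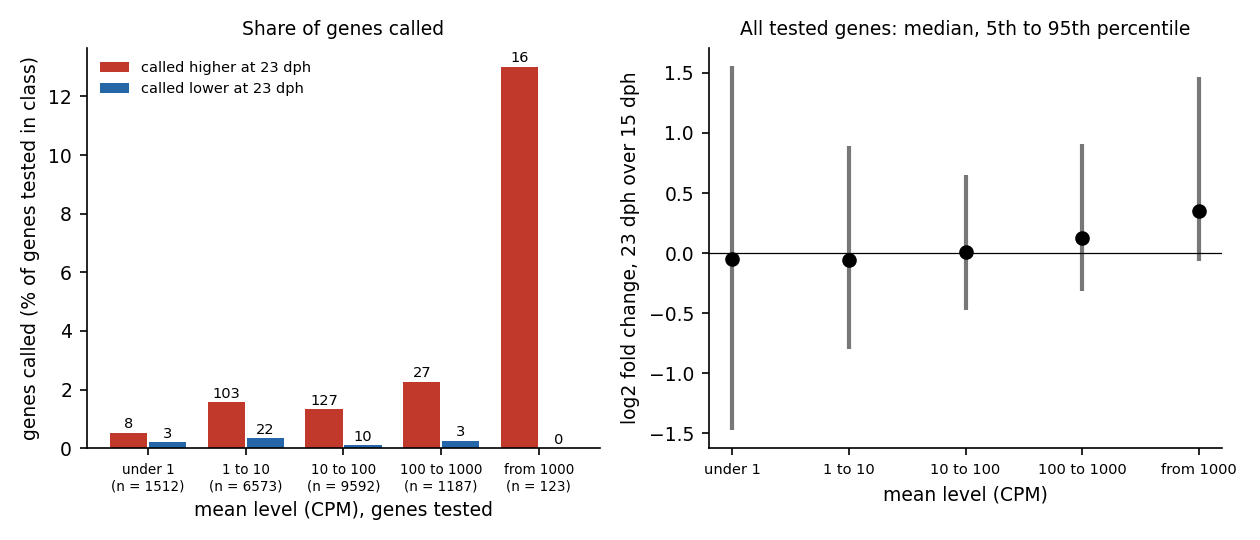
Left, bars give the percentage of tested genes called higher (red) and lower (blue) at 23 dph in 5 classes of mean CPM, with the number of genes above each bar; right, points are the median log2 fold change (23 dph over 15 dph) of all tested genes in a class and lines run from the 5th to the 95th percentile. The class from 1000 CPM has 16 genes higher and 0 lower and a median of 0.35, while the spread is widest below 1 CPM.

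Counts were also more concentrated at climax than at 15 dph. The 20 most counted genes of a library held 19.1% and 18.9% of its gene counts at 23 dph, against 12.7% and 12.8% at 15 dph. Both 23 dph libraries were therefore above both 15 dph libraries, by 6.27 percentage points between the means of 19.0% ± 0.10 at 23 dph and 12.7% ± 0.061 at 15 dph (SD, n = 2 each). With 2 libraries against 2, an exact permutation test cannot give a two-sided p below 0.333, so no test was made. At 23 dph 299 and 298 genes were enough to hold 50% of the counts, against 548 and 560 genes at 15 dph. The concentration was greater still at 37 dph. There the 20 most counted genes held 24.9% and 20.7%, and 165 and 228 genes held 50% of the counts. The genes with 1000 CPM or more together held 38.2% and 38.2% at 23 dph and 30.2% and 29.9% at 15 dph. The 20 genes with the highest mean over these 4 libraries were also compared on TMM-normalized CPM. In all but 1 of them both 23 dph libraries lay above both 15 dph libraries. This held for 87.0% of genes with 1000 CPM or more and 32.4% of all genes tested. Of the 20, 6 were called higher, against 13.0% of that class and 1.48% of all genes. The ranking includes the 23 dph level, and the gaps depend on the scaling.

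The 281 higher genes took a growing share of the counts. They held 11.7% and 11.1% of gene counts at 23 dph, against 5.42% and 5.36% at 15 dph. As the genes were chosen on these libraries, this is a description. In the libraries outside the comparison, the same genes took 15.8% and 14.2% at 37 dph and 1.35% and 1.36% at 3 dpf. These libraries had a part in the choice only through the spread, filter and scaling of the shared fit. The 16 of them with 1000 CPM or more held 9.90% and 9.43% at 23 dph and 4.67% and 4.69% at 15 dph. At 37 dph their share was about level with 23 dph, at 9.25% and 9.37%. These are shares of raw counts. The TMM factors were 0.732 and 0.873 at 37 dph and 0.941 and 0.939 at 23 dph. On TMM-normalized CPM the 37 dph levels are therefore relatively higher. The other 265 held 1.77% and 1.68% at 23 dph and 0.745% and 0.668% at 15 dph, and reached 6.56% and 4.81% at 37 dph. The share of the most counted genes was thus nearly the same at 37 dph as at climax, whereas that of the other higher genes was larger at 37 dph in both libraries.

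**Figure D3:**
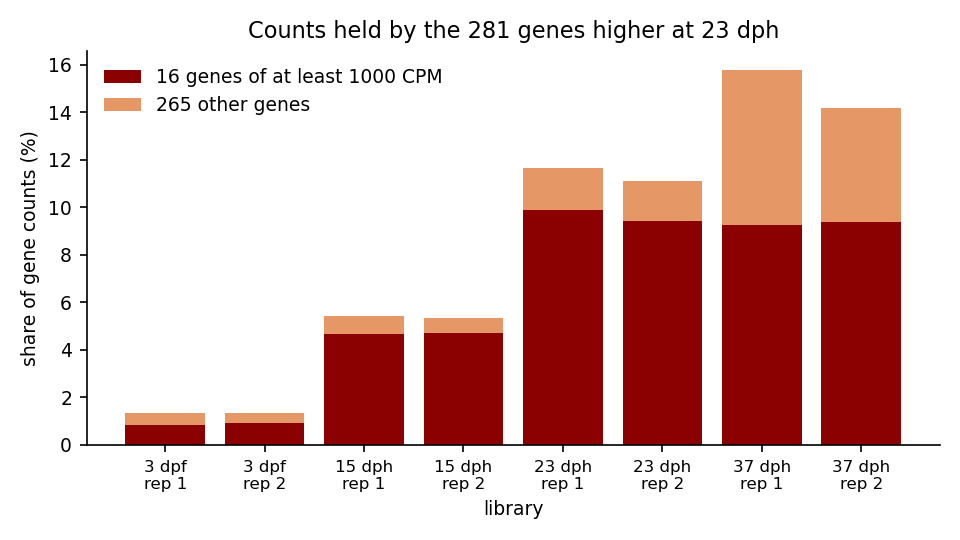
Bars give the percentage of gene counts in each of the 8 libraries held by the 281 genes called higher at 23 dph, split into the 16 with a mean of 1000 CPM or more (dark) and the 265 others (light). The total runs from 1.35% at 3 dpf to 15.8% at 37 dph, and the dark part is about level between 23 and 37 dph, at 9.25% to 9.90%.

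The gene with most counts at 23 dph was ENSSMAG00000004928, which also had the largest gain in CPM. Its levels were 25629 and 24877 CPM at 23 dph, against 8668 and 9555 CPM at 15 dph. It ranked first at both stages, and it alone held 2.41% and 2.34% of gene counts at 23 dph and 1.004% and 1.12% at 15 dph. The log2 fold change was 1.47 ± 0.25 (standard error; edgeR adjusted p = 0.016). With any 1 library of these stages left out the log2 fold change stayed between 1.40 and 1.54, while the call was lost. The embryos already had 4807 and 4229 CPM. At 37 dph it stood at 20020 and 18382 CPM, below both 23 dph libraries and above both of 15 dph.

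ENSSMAG00000011856 showed the largest fold change among the called genes with at least 10 CPM on average. It had 617 and 2316 reads at 23 dph, against 7 and 14 reads at 15 dph, and was thus almost uncounted before climax. These reads correspond to 29.6 and 129 CPM at 23 dph, against 0.290 and 0.561 CPM at 15 dph, and the log2 fold change was 7.52 ± 0.74 (standard error; edgeR adjusted p = 0.0008). The 23 dph fish differed more than 4-fold from each other. The log2 fold change was 8.23 without replicate 1 and 6.09 without replicate 2 of 23 dph. Embryos had 1.81 and 1.18 CPM, above the 15 dph larvae, and the post-metamorphic fish had 334 and 297 CPM, above both climax fish.

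Differences between the 23 dph fish were more frequent among the higher genes as a group. For 13 of the 281 (4.63%) the 23 dph replicates differed at least 2-fold on CPM + 0.5, against 0.479% of all genes tested, and in 11 of the 13 replicate 1 was the higher fish. Between the 15 dph replicates 2 of the 281 (0.712%) differed by as much, against 0.237% of all genes. Between the 37 dph replicates 17 (6.05%) did, against 2.77% of all genes. Between the embryos 3 (1.07%) did, below the 2.14% of all genes. The median difference between replicates of the 281 genes was 0.27 on the log2 scale at 23 dph and 0.23 at 15 dph, and over all genes 0.15 at 23 dph and 0.12 at 15 dph. Replicate 1 was the higher 23 dph fish in 177 of the 281 genes. The share over all genes was not computed.

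Among the lower genes, ENSSMAG00000003355 had the largest fold change. It had 10.03 and 10.4 CPM at 23 dph, against 79.9 and 104 CPM at 15 dph, and the log2 fold change was -3.17 ± 0.34 (standard error; edgeR adjusted p = 0.0013). In embryos it was far more counted, with 4165 and 2013 CPM, which ranked its mean 20th among all genes, and at 37 dph 3.06 and 4.23 CPM were left. The levels of the 4 stages did not overlap and fell at each step. ENSSMAG00000013856 lost most CPM and followed another course. It had 54.6 and 86.2 CPM at 23 dph, against 176 and 224 CPM at 15 dph (log2 fold change -1.51 ± 0.25, standard error; edgeR adjusted p = 0.013). Its level at 37 dph was again that of 15 dph, with 187 and 186 CPM, whereas embryos had 6.06 and 4.01 CPM. The call was lost without replicate 1 of the climax fish, at a log2 fold change of -1.21. It was also lost without replicate 2 of the 15 dph larvae, at -1.32.

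**Figure D4:**
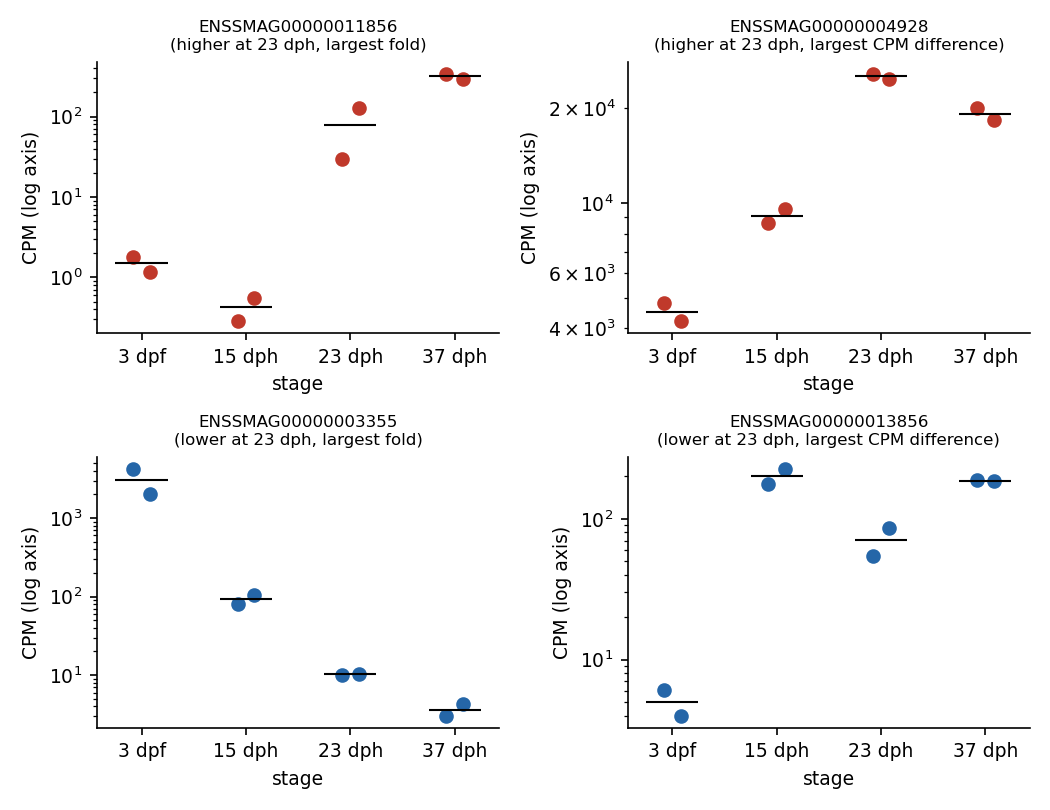
Points are the TMM-normalized CPM of each of the 2 libraries per stage, on log axes, and lines are stage means, for the genes with the largest fold change and the largest CPM difference in each direction. ENSSMAG00000004928 and ENSSMAG00000011856 are higher at 23 dph than at 15 dph; ENSSMAG00000003355 is lower at each later stage, and ENSSMAG00000013856 has its later minimum at 23 dph, with 54.6 and 86.2 CPM.

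The contrast of 37 dph with 3 dpf uses none of the libraries whose levels set the direction and fold of the chosen genes. It comes from the same fit, however, and its libraries had a part in the choice through the spread, filter and scaling. The shares called in this contrast are therefore not fully independent of the choice. Of the 281 genes higher at 23 dph, 254 (90.4%) were called higher at 37 dph than at 3 dpf, against 27.8% of all genes tested, and 5 were called lower, against 20.7%. Their median log2 fold change, 37 dph over 3 dpf, was 5.36, and it was 5.15 with levels of 3 counts or fewer held at that limit. Over all genes the median was 0.03. By fold alone, which does not use the spread, 255 (90.7%) were at least 2-fold higher at 37 dph, against 28.3% of all genes, and 5 were at least 2-fold lower, against 21.0%. Of the 38 genes lower at 23 dph, 26 (68.4%) were called lower at 37 dph than at 3 dpf and 5 higher, with a median log2 fold change of -2.08. The 3 dpf libraries are whole embryos, so age and the part of the body sampled cannot be told apart in this contrast.

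The spread in the 4-library fit owes nothing to 37 dph or 3 dpf. Of its 534 higher genes, 450 (84.3%) were called higher at 37 dph than at 3 dpf, against 27.8% of all genes tested, and 21 (3.93%) lower, against 20.7%, with a median log2 fold change of 4.45. Of its 200 lower genes, 86 (43.0%) were called lower, against 20.7% of all genes, and 46 (23.0%) higher, near the 27.8% of all genes, and the median was -0.53. The lower genes of this fit were little counted, with medians of 1.29 CPM at 23 dph and 2.99 CPM at 15 dph, and 23 of the 200 had 10 CPM or more.

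Across the 4 stages, the 281 higher genes had a median level of 1.15 CPM in embryos, 6.03 CPM before metamorphosis, 20.5 CPM at climax and 40.6 CPM after it. Placing the other stages relative to the 23 and 15 dph means uses the libraries that chose the genes, so the following counts are a description. In 225 of them the 3 dpf mean was at or below that of 15 dph, in 42 it lay between the 15 and 23 dph means and in 14 it was at or above the 23 dph mean. Both embryos had 3 counts or fewer for 48 of the genes, and 0 counts for 10, which at this depth allows up to 3 counts per library. At 37 dph 213 of the 281 were at or above their 23 dph mean, 63 lay between the 15 and 23 dph means and 5 were at or below the 15 dph mean. The most frequent course, in 177 genes, was at or below the 15 dph mean in embryos and at or above the 23 dph mean after metamorphosis.

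Of the 38 lower genes, 28 were at 37 dph at or below their 23 dph mean, 9 lay between both means and 1 was at or above its 15 dph mean. In 21 of them the embryos were at or above the 15 dph mean, and 19 of these were also at or below the 23 dph mean at 37 dph. The 38 genes had a median level of 15.3 CPM in embryos, 8.97 CPM before metamorphosis, 3.18 CPM at climax and 2.40 CPM after it. Embryos had at least 10 times the 23 dph mean for 12 of these genes. A level of at least 100 CPM was found for 6 of them at 3 dpf, 4 at 15 dph and 0 at 23 dph. Together the 38 genes held 0.0365% and 0.0362% of gene counts at 23 dph and 0.120% and 0.142% at 15 dph, and they had held 0.801% and 0.553% at 3 dpf.

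**Figure D5:**
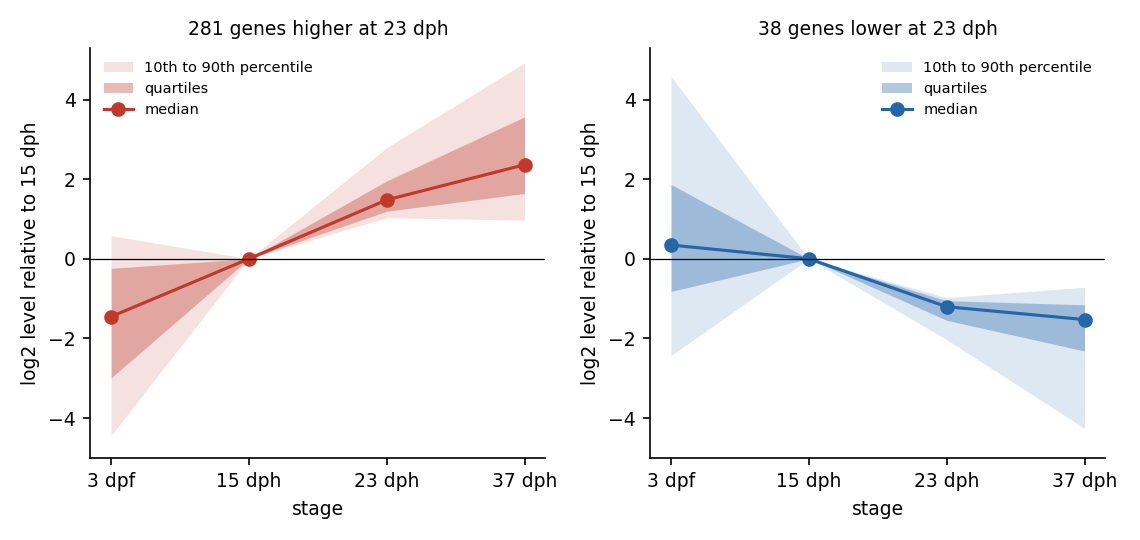
Lines are the median log2 level of the 281 genes higher (left) and the 38 genes lower (right) at 23 dph, relative to the 15 dph mean of each gene on CPM + 0.5, with shaded quartiles and 10th to 90th percentiles over genes. The medians are -1.45, 0, 1.48 and 2.36 from 3 dpf to 37 dph on the left, and 0.35, 0, -1.21 and -1.53 on the right.

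Many of the higher genes were higher again after climax. Comparisons of 37 dph with 23 dph share the 23 dph libraries with the choice of genes, so their values are given for description. Of the 281 genes, 131 were called higher at 37 dph than at 23 dph and 9 lower, where 7.67% and 4.36% of all genes were called, and the median log2 fold change was 0.92. For the 38 lower genes it was -0.38, with 12 called lower and 3 higher. Among the 16 higher genes with 1000 CPM or more, 8 had a lower and 8 a higher mean at 37 dph than at 23 dph, and the median was 0.10, where all 123 genes of that class had 0.03. The class from 100 to 1000 CPM had a median of 1.13, with 18 of 27 genes at or above the 23 dph mean, that from 10 to 100 CPM 0.66, with 93 of 127, that from 1 to 10 CPM 1.07, with 87 of 103, and that below 1 CPM 1.64, with 7 of 8. The medians of all genes tested in these classes were -0.16, -0.07, 0.07 and 0.37. The medians of the higher genes followed no order with level, and differences between classes were not tested.

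The 16 most counted higher genes were divided by whether their mean at 37 dph was below or above that at 23 dph. The direction of each sum, and of each call, after climax is therefore fixed by the division. In edgeR's test of 37 dph against 23 dph, 8 of the 16 were called in either direction. The 8 with a lower mean at 37 dph included the 5 that were highest at 23 dph. Their summed level was 7163 CPM in embryos, 30485 CPM before metamorphosis, 74206 CPM at climax and 43548 CPM after it. In 7 of these 8 genes both 37 dph libraries lay below both 23 dph libraries, a gap that the division favours. Its share over all genes was not computed. Of the 8, 3 were called lower at 37 dph. The sum of the other 8 was 672 CPM in embryos, 9772 CPM before metamorphosis, 28598 CPM at climax and 73349 CPM after it. Of these 8 genes, 5 were called higher at 37 dph. The 7.67% of all genes tested cannot be set against this share, for the same reason. The log2 fold changes of the 16 genes, 23 dph over 15 dph, ran from 1.05 to 3.15.

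The size of the change at climax was also described against the later course. The 40 higher genes with at least 8-fold changes had a median of 15.6 CPM at 23 dph, against 0.580 CPM at 15 dph, with 0.275 CPM in embryos and 48.7 CPM after metamorphosis. Of these 40, 39 were called higher at 37 dph than at 3 dpf, where 27.8% of all genes tested were. At 37 dph 32 of the 40 were at or above their 23 dph mean. The 189 genes with changes of 2 to 4-fold had a median of 26.2 CPM at climax, against 8.92 CPM before it, and 142 of them were at or above the 23 dph mean at 37 dph. In this group lay the 5 genes that were back at or below their 15 dph mean at 37 dph, and also the 5 that were called lower at 37 dph than at 3 dpf.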

How the data were processed

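The authors sequenced poly(A)-selected, stranded libraries, removed adapters, used STAR 2.7.9a for mapping on ASM1334776v1 and HTSeq-count 2.0.2 for counting per gene. The strand setting and annotation release are not given in the sources used here, so reads of overlapping genes and of close copies cannot be separated. The deposited values are raw counts, with no normalization, for 21263 genes per library, of which 1057 had 0 counts throughout. The 5 summary entries were left out of tests and library sizes. Of aligned entries, 74.1% to 76.5% were on a gene, 15.3% to 18.9% had no feature and 1.63% to 2.57% were ambiguous. The gene table, for the assembly ASM2237912v1, holds 26628 genes and 0 Ensembl identifiers.

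Genes were filtered with filterByExpr, normalized by TMM and tested with edgeR 4.0.16 in R 4.3.3 in 1 fit with a mean per stage and 4 residual degrees of freedom. The standard error is the log2 fold change divided by the square root of the F statistic. Alternatives used limma 3.58.1 and DESeq2 1.42.0. Replicates are 2 fish per stage. The genes named in each direction were, among called genes averaging 10 CPM or more without overlap between stages, those with the largest fold change and the largest CPM difference. Gene groups and lists were chosen with earlier results of these data known, and the planned lists of named genes were not run. The edgeR fit was tested on simulated data with 18564 genes tested and the spread of each stage. The fit recovered 19 of 50 genes changed 2-fold, 46 of 50 changed 3-fold and all 50 changed 4-fold, with 0 false calls. In the real data the stages differ in many genes and the calls are mostly in a single direction. The simulation therefore does not give the error rate of the real calls. Limits at 3 counts cover counting error only.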

Additional observations from a re-analysis of the deposited data

How the results depend on the processing

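Of 242 values recomputed under alternatives, 192 stayed on their side of the threshold or within 1.5 times the value. Some could hardly move, such as the fold change of a named gene under another fold limit or with an embryo left out. Values other than those of named genes and of positions at 37 dph moved in 42 cases and stayed in 110. No named gene changed direction, but these genes were chosen for large changes without overlap. Where a setting does not itself give the cause of a change, the cause was not tested. From 281 higher and 38 lower genes, the counts became 595 and 241 in voom with stage weights (71.2% higher), 534 and 200 with 4 samples only, 92 and 10 with a log2 limit of 2 on the fold change, and 146 and 12 when the genes tested averaged 10 CPM or more. DESeq2 called 69 lower. Calls were 1.68% of genes with 10 CPM or more and 1.68% of those with fewer. The share below 10 CPM became 7.2% in voom and 6.33% with 4 samples only, and both fell, to 0.404% and 0.717%, at the larger fold. With each library left out, higher genes ranged from 56 to 351, lower genes from 5 to 85, and the shares from 0.367% to 2.08% and from 0.253% to 2.72%. In the contrast of 37 dph with 3 dpf, the filter at 10 CPM left 153 of the 254 and 2 of the 5 higher genes and 1 of the 5 and 10 of the 26 lower genes, since it tests fewer; the larger fold left 3 and 3 of the 5 in each case. The shift of 6.27 points in the 20 most counted genes was 3.07 with 5 genes, 7.87 with 100 and 6.58 with 1 fixed set. The replicate number as a block gave 338 higher and 44 lower genes. The numbers are not known to pair the fish. Deviations of same-numbered 23 and 15 dph libraries correlated at 0.011 across genes. Those of 3 dpf correlated at 0.234 with 37 dph and at -0.139 with 23 dph, and the other pairs of stages lay between -0.021 and 0.024. What these values reflect was not tested. Between 196 and 225 higher genes were at or above the 23 dph mean at 37 dph under other scalings or with a library left out, alternatives added after seeing the data. Simulated 2-fold changes were often missed. A true 2-fold change lies on the limit for a call, so estimates just below it are missed whatever the spread.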
